A study of Mus musculus with 2 samples.

Results

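Cassette exons are internal exons that some mature transcripts of a gene hold and others leave out. In mouse gastrocnemius, 271 such exons over 40 nt, in 221 protein-coding genes on 20 chromosomes, were used alternatively. They were chosen from long reads. An annotated internal exon counted as included in the reads of transcript models that held exactly that exon between 2 introns. It counted as skipped in the reads of models with 1 intron running from the end of the exon before it to the start of the exon after it. Included and skipped reads together are the informative reads, and inclusion is the included share of them. Of 187116 annotated internal exons over 40 nt, 17290 exons of 2461 genes had at least 20 informative reads in each library. The 271 members had an inclusion of 10 to 90% on the reads of both libraries summed, which is 1.57% of the 17290. Another 16445 exons lay over 90%, and 15082 of those (91.7%) had no skipping read, while 574 exons lay under 10%. Inclusion chose the exons, so their inclusion levels are given as a description.

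The splicing machinery joins 1 exon to the next, and RNA-binding proteins near a weak exon help or hinder its recognition. Because codons are read in triplets, a coding cassette exon whose length is a multiple of 3 adds or removes whole amino acids and leaves the rest of the protein in frame. Other lengths shift the reading frame, which often brings an early stop codon and marks the transcript for nonsense-mediated decay. Skeletal muscle is known for many muscle-specific cassette exons in genes of the sarcomere, of calcium handling and of membrane trafficking, and the families Mbnl, Rbfox and Celf are known regulators of them.

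The RNA came from the gastrocnemius, a muscle of the calf made mainly of fast fibres, of female mice of the strain B6CASTF1/J at 36 days of age, read in 2 libraries of 1 group. These animals are first-generation hybrids of C57BL/6J and CAST/EiJ, while the reads were placed on the C57BL/6J reference (mm10), and whether this affected the inclusion of any exon was not tested. The labels give the libraries different female numbers under a single donor entry, and they were taken as 2 animals. No treatment or genotype was compared. The count tables held 853589 reads in replicate 1 and 1748822 in replicate 2, of which 19192 and 28848 were informative for a member exon, with medians of 38 and 60 reads per member. All 8 skeletal muscle markers had reads in both libraries, and they summed to 265473 and 218296 CPM, counts scaled to the reads in annotated genes. The 6 slow fibre markers differed, with a sum of 17.6 CPM in replicate 1, where Myh7, Myl2 and Myl3 were at 0, and 7806 CPM in replicate 2. In bulk tissue, fewer cells of a type and less RNA per cell cannot be told apart. Blood markers summed to 2543 and 549.8 CPM and adipocyte markers to 449 and 75.5 CPM, and the markers of nerve, endothelium, smooth muscle and fibroblasts lay between 89.2 and 918 CPM in both libraries.

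The exon sequences below come from the GENCODE M21 transcripts (GRCm38, the same build as mm10) and are written 5′ to 3′ on the transcript strand. The first set shows coding exons of at most 300 nt from among the 15 most read members. In these and in the next set, capitals mark the bases of a codon that the exon shares with a neighbouring exon, so an exon with no capital begins and ends between codons. Ybx3 lies at chr6:131375974-131376180 (minus strand), Gnas at chr2:174336747-174336791 (plus), Tecr at chr8:83573411-83573455 (minus), Mlf1 at chr3:67390978-67391022 (plus), Eif4g2 at chr7:111076280-111076393 (minus) and Tspan3 at chr9:56145489-56145572 (minus). All 6 are multiples of 3 and were annotated as coding.
Ybx3, 207 nt: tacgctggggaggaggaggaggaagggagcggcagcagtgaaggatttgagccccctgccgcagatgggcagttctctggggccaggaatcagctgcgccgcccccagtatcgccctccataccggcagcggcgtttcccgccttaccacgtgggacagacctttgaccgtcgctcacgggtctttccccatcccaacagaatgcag
Gnas, 45 nt: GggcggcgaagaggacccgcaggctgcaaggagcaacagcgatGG
Tecr, 45 nt: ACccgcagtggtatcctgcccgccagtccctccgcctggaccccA
Mlf1, 45 nt: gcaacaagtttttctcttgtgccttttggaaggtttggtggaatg
Eif4g2, 114 nt: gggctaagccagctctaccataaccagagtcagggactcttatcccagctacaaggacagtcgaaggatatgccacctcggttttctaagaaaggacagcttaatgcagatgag
Tspan3, 84 nt: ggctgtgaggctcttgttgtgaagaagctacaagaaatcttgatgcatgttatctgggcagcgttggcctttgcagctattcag

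The second set shows the 4 exons whose inclusion differed between the libraries past the test described further on. Nrap lies at chr19:56374364-56374468, the 42-nt exon of Mybpc1 at chr10:88582007-88582048, the 59-nt exon of Mybpc1 at chr10:88521277-88521335 and Phka1 at chrX:102557096-102557272, all on the minus strand. The 59-nt exon is the single member among these 4 whose length is not a multiple of 3.
Nrap, 105 nt: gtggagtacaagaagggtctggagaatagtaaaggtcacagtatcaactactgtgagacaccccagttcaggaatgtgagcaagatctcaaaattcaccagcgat
Mybpc1, 42 nt: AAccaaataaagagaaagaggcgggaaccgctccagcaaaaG
Mybpc1, 59 nt: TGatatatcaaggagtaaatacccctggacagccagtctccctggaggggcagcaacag
Phka1, 177 nt: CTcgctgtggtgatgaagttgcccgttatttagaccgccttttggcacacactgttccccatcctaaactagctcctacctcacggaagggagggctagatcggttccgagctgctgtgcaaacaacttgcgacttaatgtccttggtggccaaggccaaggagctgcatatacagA

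The third set shows the 2 pairs of neighbouring exons that were used in exchange for each other, and these were picked for display after their values were seen. The Calu exons lie at chr6:29361294-29361487 and chr6:29361560-29361753, and the Flot2 exons at chr11:78053363-78053453 and chr11:78054785-78054875, all on the plus strand. Here capitals mark the bases that stand at the same position in both exons of the pair, counted from the first base without gaps. The 2 Calu exons share 127 of 194 bases (65.5%) and the 2 Flot2 exons share 60 of 91 (65.9%).
Calu, upstream exon: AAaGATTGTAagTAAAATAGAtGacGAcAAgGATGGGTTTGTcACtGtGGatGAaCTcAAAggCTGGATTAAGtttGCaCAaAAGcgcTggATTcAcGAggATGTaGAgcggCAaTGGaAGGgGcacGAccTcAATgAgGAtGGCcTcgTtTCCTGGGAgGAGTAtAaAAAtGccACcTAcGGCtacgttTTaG
Calu, downstream exon: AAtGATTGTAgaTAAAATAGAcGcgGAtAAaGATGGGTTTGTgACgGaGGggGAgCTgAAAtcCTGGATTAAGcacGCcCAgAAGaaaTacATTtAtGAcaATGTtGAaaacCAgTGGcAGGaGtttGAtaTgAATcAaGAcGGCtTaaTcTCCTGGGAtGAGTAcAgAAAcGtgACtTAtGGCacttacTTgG
Flot2, upstream exon: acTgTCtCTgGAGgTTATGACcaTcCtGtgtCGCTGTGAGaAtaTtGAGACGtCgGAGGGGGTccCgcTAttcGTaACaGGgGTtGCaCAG
Flot2, downstream exon: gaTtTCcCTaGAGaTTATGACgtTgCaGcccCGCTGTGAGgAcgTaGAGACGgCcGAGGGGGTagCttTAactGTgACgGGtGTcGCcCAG

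Most of the cassette exons lay in coding sequence, but less often than exons that were nearly always used. By the annotated transcripts that hold them, 183 of the 271 members (67.5%, exact 95% interval 61.6 to 73.1%) were wholly coding, 35 (12.9%) held a start or stop codon, 32 (11.8%) lay in a 5′ UTR and 1, in Hnrnpa2b1, lay in a 3′ UTR. A further 14 (5.17%) were found in transcripts annotated for nonsense-mediated decay and in no other protein-coding transcript, and 6 (2.21%) were in other noncoding transcripts of the gene. Among the exons over 90% inclusion, 95.7% were coding and 0.365% lay in a 5′ UTR. Among the exons under 10%, 15.9% were coding, 20.6% lay in a 5′ UTR and 34.7% were in decay transcripts but in no other protein-coding transcript. The share of coding members was lowest at low inclusion, with 32 of 72 at 10 to 30% inclusion (44.4%, 32.7 to 56.6%), 59 of 79 at 30 to 70% (74.7%, 63.6 to 83.8%) and 92 of 120 at 70 to 90% (76.7%, 68.1 to 83.9%). All intervals cover counting error alone, and exons are not replicates, so no p is given for these shares.

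Cassette exons within coding sequence mostly kept the reading frame. Of the 183 coding members, 138 had a length that is a multiple of 3 (75.4%, 68.5 to 81.5%), against 6220 of 15737 coding exons over 90% inclusion (39.5%, 38.8 to 40.3%) and 72 of 91 coding exons under 10% (79.1%, 69.3 to 86.9%). The intervals of the members and of the nearly always used exons do not overlap, while those of the members and of the rarely used exons do. Of the other coding members, 15 (8.20%) exceeded a multiple of 3 by 1 nt and 30 (16.4%) by 2 nt. Outside coding sequence, 30 of 88 members (34.1%, 24.3 to 45%) had such a length, beside 30.5% of such exons over 90%, which lies within the members' interval. Choosing the exons on 1 library alone, among those with enough reads in both, gave 73.4% for replicate 1 and 76.1% for replicate 2. Exons placed with a start or stop codon or in decay transcripts are not among the coding exons. A form removed by decay also leaves fewer reads, which can move an exon past the inclusion limits. The part of both in these shares was not tested.

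**Figure D1:**
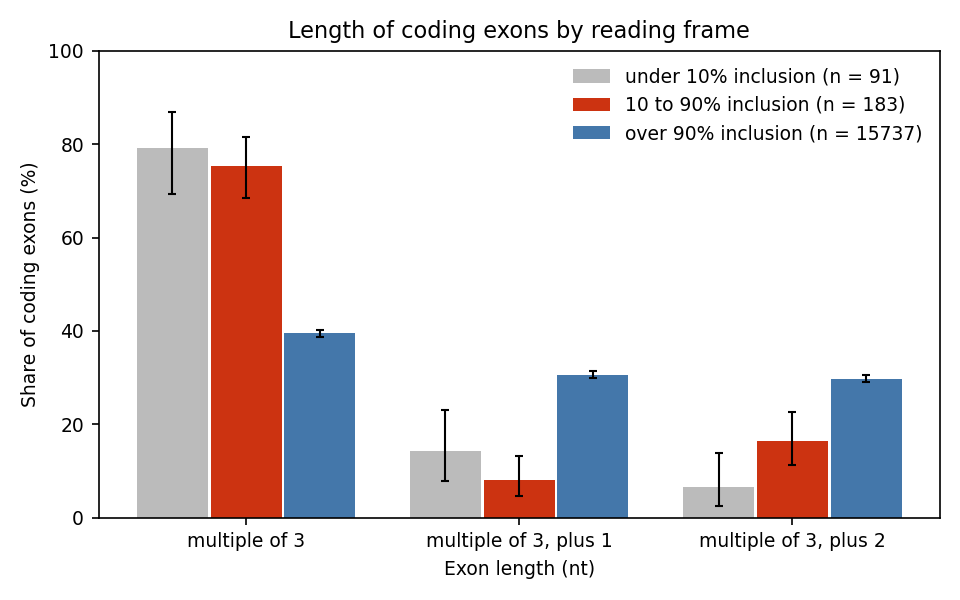
Share of coding exons (%, vertical axis) by exon length relative to a multiple of 3 (horizontal axis), for exons under 10%, at 10 to 90% and over 90% inclusion, with exact 95% intervals as bars. Multiples of 3 make up 75.4% of the cassette exons at 10 to 90% and 39.5% of the exons over 90%.

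The excess of multiples of 3 was seen in every length range. It was 77.8% against 41.9% in exons over 90% at 41 to 60 nt, 85.4% against 38.5% at 61 to 90 nt, 69.6% against 41.2% at 91 to 120 nt, 77.1% against 39.0% at 121 to 180 nt, and 55.6% (10 of 18) against 37.8% in longer exons. In the last range the members' interval, 30.8 to 78.5%, covers the value of the nearly always used exons. By inclusion, the share was 81.3% (26 of 32) at 10 to 30%, 84.7% (50 of 59) at 30 to 70% and 67.4% (62 of 92) at 70 to 90%, and these intervals overlap. Of the 138 members that keep the frame, 69 began between codons, 49 began after the first base of a codon and 20 after the second.

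The skipped forms were also compared with the annotation. No annotated skipping transcript was read for 30.4% of the coding members at a multiple of 3 (22.9 to 38.8%). The share was 35.6% for those at other lengths (21.9 to 51.2%), and these intervals overlap. For 96 of the 138 frame-keeping coding members an annotated transcript was among the skipping reads, and the most read such transcript was protein coding in all 96 and a decay transcript in 0. Of the 45 coding members that shift the frame, 29 had an annotated skipping transcript. For 20 of these 29 the most read one was protein coding, and for 5 it was annotated for decay: Adhfe1, Cnep1r1, Mrpl13, Parp6 and Rab22a. A decay annotation rests on an early stop codon, which leaving out whole codons seldom brings. The contrast in decay transcripts is thus largely set by exon length, and nothing is read from it. The median inclusion was 64.7% for the frame-keeping and 76.1% for the frame-shifting coding members. Over all members, 73 (26.9%) had no annotated transcript among their skipping reads, so their skipped form was seen in models that the authors' pipeline added. These include the 1311-nt exon of Srl and the exons of Jsrp1, Eif4g2, Tspan3, Ttn and Neb.

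The members were shorter than nearly always used exons. Their median length was 95 nt (quartiles 69 and 129.5 nt, range 41 to 1584 nt) against 115 nt (86 and 152 nt) for exons over 90% inclusion. Exons of up to 100 nt made up 54.2% of the members (48.1 to 60.3%) and 37.3% of the exons over 90% (36.5 to 38.0%), while the shares over 200 nt, 7.38% and 8.23%, had overlapping intervals. Coding members at a multiple of 3 had a median of 91.5 nt and the other coding members 104 nt. The shortest member was the 41-nt exon of Adhfe1, which encodes a mitochondrial enzyme. It was followed by 7 exons tied at 42 nt, in Arfgap2, Bnip3l, Camk2d, Kif1b, Mybpc1, Tpd52 and Tpd52l2. The 3 longest were the 1584-nt exon of Ythdf2, a reader of methylated adenosine in mRNA, the 1311-nt exon of Srl and the 1049-nt exon of Mbnl1. In Ythdf2 inclusion was 92.0% (23 of 25 reads) and 66.7% (46 of 69), a difference that did not pass the test, and in Mbnl1 it was 23.7% (9 of 38) and 16.0% (4 of 25).

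**Figure D2:**
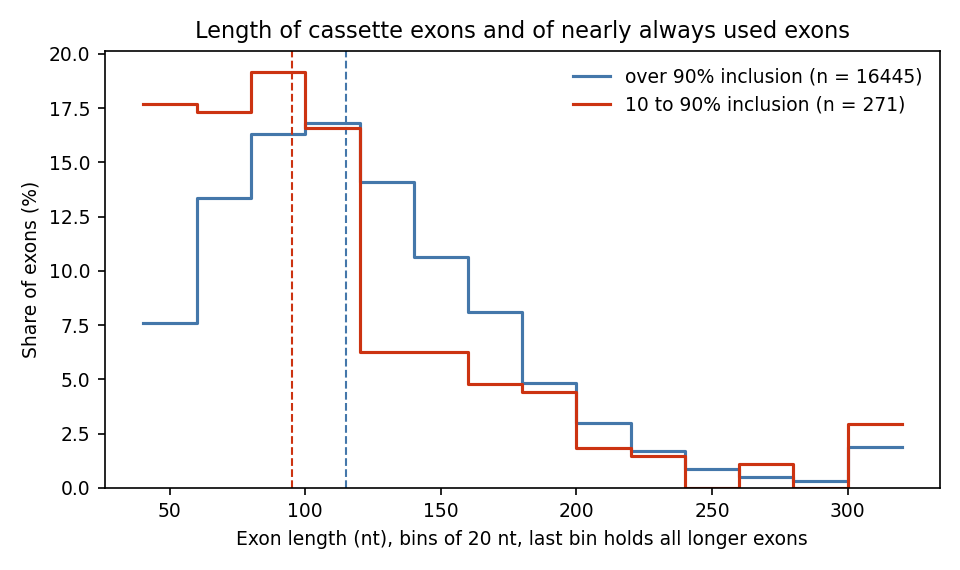
Share of exons (%, vertical axis) by length in nt (horizontal axis, bins of 20 nt, the last holding all longer exons), for the 271 cassette exons and the 16445 exons over 90% inclusion, with the medians of 95 and 115 nt as dashed lines. The cassette exons lie further to the left.

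Inclusion in the 2 libraries was close for most members. The median was 61.4% in replicate 1 and 62.3% in replicate 2, and the median absolute difference per exon was 6.36 percentage points. It was under 10 points for 177 members (65.3%) and over 20 points for 15. For the 27 members with at least 100 informative reads in each library the median difference was 3.81 points and the largest 22.9. Across the 271 exons, Pearson's r was 0.921 and Spearman's rho 0.876. These are descriptions, since the exons were chosen on the same values and those of 1 gene share reads. Of 275 exons at 10 to 90% in replicate 1, 227 (82.5%) were also at 10 to 90% in replicate 2.

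**Figure D3:**
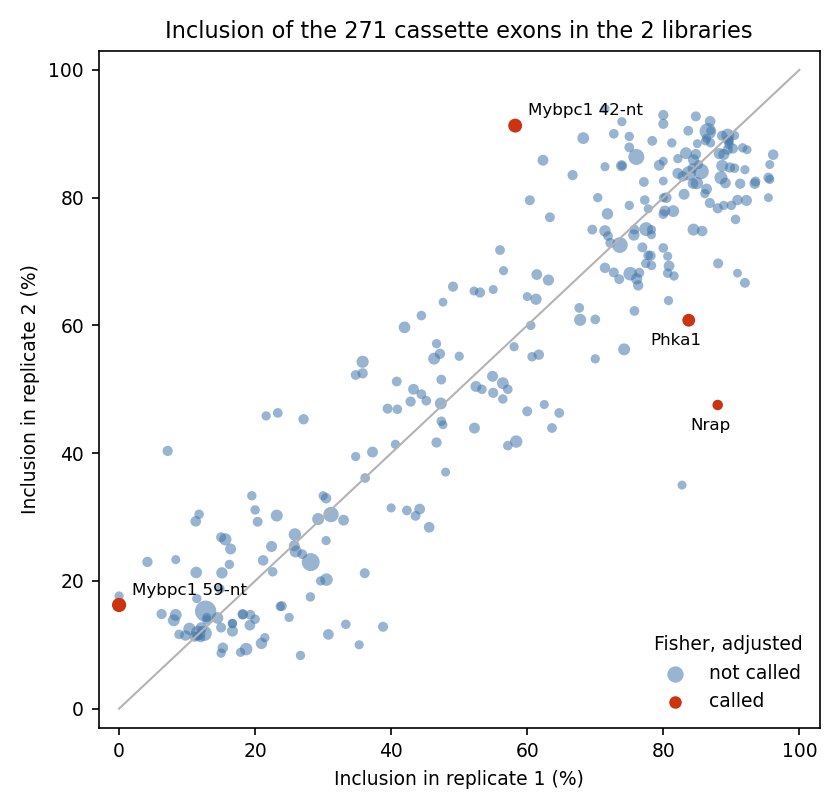
Inclusion (%) of the 271 cassette exons in replicate 1 (horizontal axis) and replicate 2 (vertical axis). Each point is 1 exon, its area grows with its informative reads, and red points are the 4 exons called different. Most points lie near the diagonal, and the exons of Nrap, Phka1 and Mybpc1 lie away from it.

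The limits of 10 and 90% cut through a continuous range. Just inside the lower limit stood Mbnl2 at 10.1%, Tapt1 at 10.4% and Tmem234 at 10.6% on summed reads, and just outside it Thoc7 and Uba2 at 9.76% and Ube2v1 at 9.68%. Just inside the upper limit stood Rnf130, Arhgap10 and Zranb1 at 90%, and just outside it Fxr1 at 90.04%, Trdn at 90.1% and a second 105-nt exon of Nrap at 90.2%.

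Genes of the contractile apparatus held some of the most variable members. In the list of sarcomere and Z disc genes, 8 of 622 exons tested (1.29%) were members, close to the 1.57% over all exons, and all 8 were coding, 7 of them in frame. The giant nebulin, Neb, which spans the thin filament, had 4 members, each with a higher value in replicate 2. The 93-nt exon was included in 43 of 69 reads (62.3%) and 85 of 99 (85.9%). The 105-nt exon was included in 8 of 71 (11.3%) and 22 of 75 (29.3%), and the 114-nt exon in 16 of 59 (27.1%) and 29 of 64 (45.3%). The 111-nt exon was included in 4 of 56 (7.14%) and 23 of 57 (40.4%). None of the 4 passed the test over all exons, the lowest adjusted p being 0.0996 for the 111-nt exon (Fisher's exact test, Benjamini-Hochberg). Titin, Ttn, the molecular spring of the sarcomere, had 1 member of 303 nt, which adds 101 amino acids, at 35.8% (58 of 162) and 54.3% (82 of 151), which did not pass either. The lists of gene function leave out 185 of the 271 members, and 1.39% of the exons outside the lists were members.

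**Figure D4:**
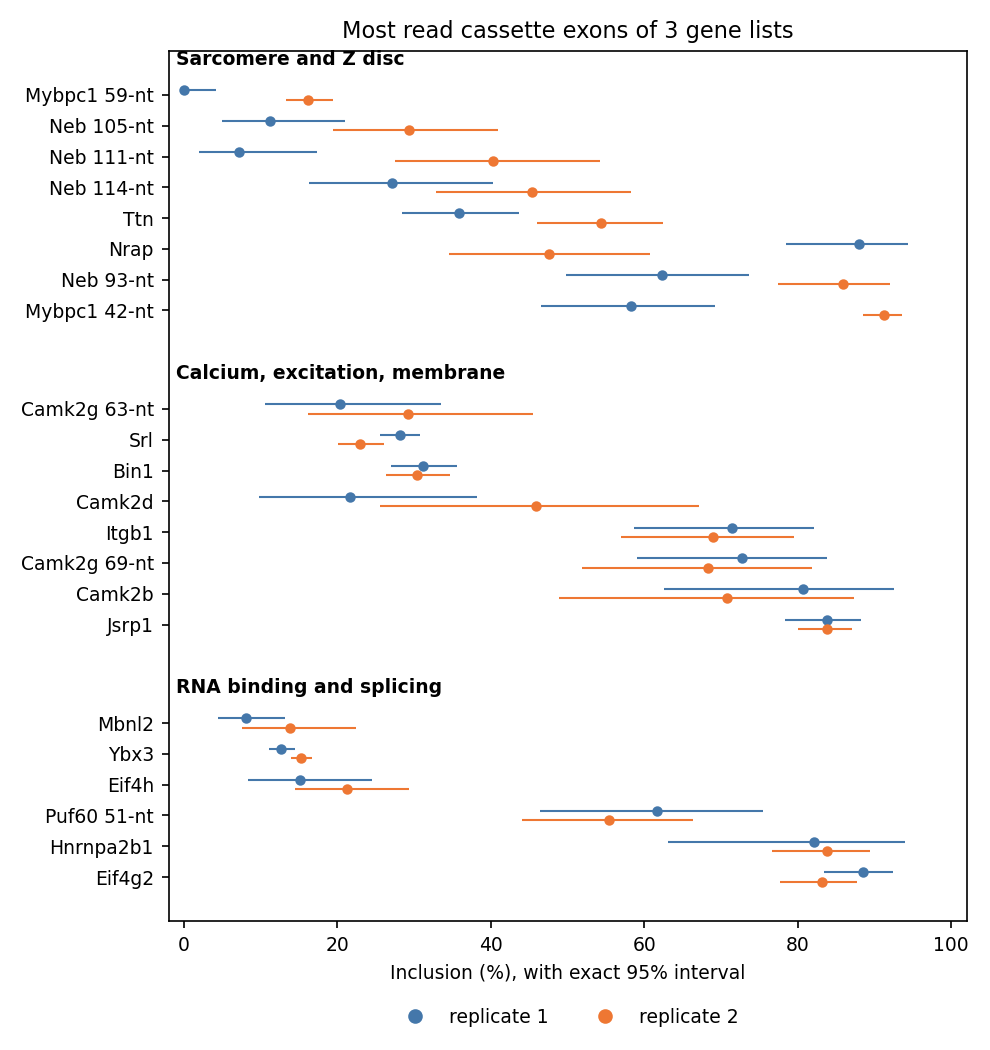
Inclusion (%, horizontal axis) of the most read cassette exons in 3 gene lists, at most 8 a list, in replicate 1 (blue) and replicate 2 (orange), with exact 95% intervals as bars. In the sarcomere list several pairs of intervals do not overlap, among them those of Nrap and both Mybpc1 exons, while Bin1, Jsrp1 and Itgb1 had almost the same inclusion in both libraries.

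Genes of calcium handling, excitation and the muscle membrane gave 9 members of 371 exons tested (2.43%), and 0 were called different between the libraries. Srl encodes sarcalumenin, a calcium-binding protein of the sarcoplasmic reticulum whose shorter form is a glycoprotein of the same membrane. Its 1311-nt exon, 437 amino acids, at chr16:4496405-4497715, was included in 333 of 1182 reads (28.2%) and 179 of 780 (22.9%). Most informative reads left it out in both libraries. Whether the length of the exon affected how often molecules with it were read was not tested. Bin1 shapes the membrane tubules that carry excitation into the fibre, and its 72-nt exon was included in 148 of 475 reads (31.2%) and 148 of 487 (30.4%). Jsrp1, a partner of the calcium channel at the triad, included its 123-nt exon at 83.8% in both libraries (196 of 234 and 378 of 451). The calcium/calmodulin kinase II family had 4 of these exons, at 72.7 and 68.3% for a 69-nt exon of Camk2g, 20.4 and 29.3% for its 63-nt exon, 80.6 and 70.8% for the 129-nt exon of Camk2b, and 21.6 and 45.8% for the 42-nt exon of Camk2d. All 4 of these are multiples of 3.

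The adhesion receptors of the fibre membrane were among this group too. Itgb1, the beta 1 integrin, has a muscle form with its own tail, and an 81-nt exon that is annotated with a start or stop codon was included in 45 of 63 reads (71.4%) and 49 of 71 (69.0%). Itga7, the laminin receptor subunit of muscle, had the widest difference of all members, 82.8% (24 of 29) against 35.0% (7 of 20) for a 113-nt exon. It did not pass the test (adjusted p of 1 by Fisher's exact test, Benjamini-Hochberg).

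RNA-binding proteins and splicing factors gave 23 members of 446 exons tested (5.16%, beside 1.57% over all exons) in 18 genes, 0 of them called. Their median inclusion was 35.9%, and 12 of 16 coding members kept the frame. Ybx3, a cold-shock domain protein that binds mRNA and is abundant in muscle, was the most read member, and its 207-nt exon of 69 amino acids was included in 187 of 1470 reads (12.7%, 11.1 to 14.5%) and 407 of 2667 (15.3%, 13.9 to 16.7%). The regulators of muscle splicing were themselves alternatively spliced. Mbnl1 included a 95-nt exon at 78.1 and 70.9%, and the 95-nt exon of its relative Mbnl2 stood at 8.05 and 13.8%. Rbfox1 included a 93-nt exon at 85.2% in both libraries, and Celf2 a 144-nt exon at 90 and 78.8%.

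The hnRNP proteins, which coat nascent RNA, contributed several members at intermediate levels. Hnrnpd, also called AUF1, makes isoforms that differ by 2 exons, and these were included at 44.4 and 49.2% (147 nt) and at 77.3 and 79.6% (57 nt). Hnrnpa1 had a 159-nt exon at 43.6 and 30.2%, Hnrnpab a 141-nt exon at 42.3 and 31.0%, and Hnrnpa2b1 its 3′ UTR exon at 82.1 and 83.8%. Pcbp2 (93 nt) stood at 40 and 31.4%. Zc3h14, a poly(A)-binding zinc finger protein, had a 160-nt exon at 46.7 and 41.7%. None of these hnRNP, Pcbp2 or Zc3h14 exons differed between the libraries past the test.

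Exons found in decay transcripts but in no other protein-coding transcript were mostly skipped, as 11 of the 14 had an inclusion under 50%, with a median of 16.5%. Splicing factors were among their genes: Srsf6 (268 nt) stood at 16.7 and 13.3%, Hnrnpdl (105 nt) at 18.2 and 14.8%, Puf60 (120 nt) at 11.1 and 11.3%, and Rbm39 (73 nt) at 4.17 and 23.0%. Actg1, the cytoplasmic gamma actin, had a 45-nt exon of this kind at 45.6% (31 of 68) and 28.4% (23 of 81). E2f6 (66 nt, 71.4 and 74.8%), Mtg2 (139 nt, 85.0 and 88.5%) and Yaf2 (70 nt, 44.4 and 61.5%) were the 3 of these 14 with a summed inclusion over 50%. A transcript removed by decay leaves fewer reads, so inclusion in the reads is not the share of molecules spliced that way.

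Energy metabolism was the list with the fewest members for its size, 9 of 1279 exons tested (0.704%), in 6 genes. Mff, the receptor that recruits the fission machinery to mitochondria, had 3: a 5′ UTR exon of 172 nt at 26 and 24.6%, and coding exons of 75 nt at 46.3 and 54.8% and of 159 nt at 88.7 and 85.0%. Opa1, which fuses the inner membranes, had 2, of 54 nt at 40.6 and 41.4% and of 111 nt at 50 and 55.2%. Slc16a3, the lactate exporter of fast fibres, used a 95-nt 5′ UTR exon in 657 of 759 reads (86.6%) and 554 of 613 (90.4%), and Ndufs1, a subunit of complex I, used a 104-nt 5′ UTR exon in 23 of 198 (11.6%) and 59 of 497 (11.9%). Tecr, an enoyl reductase of fatty acid elongation that lies outside the list, included its 45-nt exon in 355 of 415 reads (85.5%) and 529 of 629 (84.1%). By a broader grouping of all 221 genes, metabolism and mitochondria had 37 members, and 16 of the 27 coding ones kept the frame.

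Genes of the cytoskeleton and vesicle traffic gave 19 members of 471 exons tested (4.03%), and 14 of 15 coding ones were in frame. In the broader grouping, adhesion included, 30 of 33 coding members were. Ktn1, kinectin, an anchor of the endoplasmic reticulum for kinesin, held 5 members, the most of any gene, at 63.1 and 67.1% (87 nt), 61.3 and 64.1% (72 nt), 12.1 and 12.7% (84 nt), 33.0 and 29.5% (110 nt) and 21.2 and 23.2% (116 nt). The 110-nt and 116-nt exons begin at the same base and share their skipping reads, so they are 2 forms of 1 exon. A read with either form counted as neither included nor skipped for the other. The 5 levels differed by less than 5 points each between the libraries although they ranged from 12.1 to 67.1%. Map7d1, a microtubule-associated protein, stood at 67.8 and 60.9% (111 nt), Myl6, the light chain of nonmuscle myosin, at 47.3 and 47.8% (45 nt), and Arfgap2, which acts on the coat of Golgi vesicles, at 42.0 and 59.7% (42 nt). None of these passed the test.

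Signalling genes gave 12 members of 608 exons tested (1.97%), and all 10 coding ones kept the frame. Gnas encodes the stimulatory G protein alpha subunit, whose long and short forms differ by the 45-nt exon. This exon was included in 293 of 398 reads (73.6%) and 495 of 682 (72.6%). Where any intron spanning the exon counted as skipping, its inclusion was 45.7 and 42.3%, so the level depends on how skipping is defined. That definition moved the summed inclusion of 7 members by over 10 points. Gnas, Tecr and Bin1 were the most read members whose inclusion differed by less than 2 points. Csnk1a1, casein kinase 1 alpha, included an 84-nt exon at 11.3 and 21.3%, Csnk1d a 63-nt exon at 58.1 and 56.7%, Usp15 an 87-nt exon at 42.9 and 48.1%, and Tsc2, a brake on growth signalling, a 69-nt exon at 56.4 and 48.5%. Pde4dip, a scaffold of the centrosome and Golgi also called myomegalin, included a 153-nt exon at 81.5 and 77.9%. Ube2d3, a ubiquitin-conjugating enzyme, included a 50-nt exon at 75.1 and 68.1%.

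Transcription factors and chromatin genes gave 6 members of 208 exons tested (2.88%). Srf, which drives muscle and actin genes, included its 192-nt exon in 23 of 34 reads (67.6%) and 32 of 51 (62.7%), so the form without it was the less read one in both libraries. The nuclear factor I family had 3 members, Nfix (123 nt, 25.8 and 25.5%), Nfib (89 nt, 8.33 and 23.3%) and Nfic (77 nt, 73.9 and 85.0%). Ctbp1, a corepressor, used a 193-nt exon with a start or stop codon at 77.5 and 75.1%. In the broader grouping, 13 members of 11 genes of translation, among them factors, mitochondrial ribosomal proteins and tRNA synthetases, had a median inclusion of 81.5%. The 2 initiation factors lay at opposite ends, with the 114-nt exon of Eif4g2, of the eIF4G family, at 88.5% (192 of 217) and 83.1% (192 of 231), and the 60-nt exon of Eif4h at 15.1% (13 of 86) and 21.3% (27 of 127). Mlf1, a muscle-expressed partner of 14-3-3 proteins, included its 45-nt exon in 238 of 313 reads (76.0%) and 729 of 844 (86.4%). Tspan3, a tetraspanin, was included at 89.5 and 89.8%.

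Exons of the 5′ UTR were skipped more often than coding members. Their median inclusion was 31.0%, and 20 of 32 lay under 50%, while exons with a start or stop codon had a median of 48.9%. Cystm1, a small membrane protein, used a 115-nt 5′ UTR exon in 29 of 232 reads (12.5%) and 85 of 721 (11.8%). The Rnf14 gene, for a ubiquitin ligase, had 3 such exons between 11.1 and 22.6% in both libraries, beside a coding 152-nt exon at 80.6 and 68.2%. A read that starts inside a transcript does not count for exons before its start, and how complete the 5′ ends of the reads are was not tested.

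Between the libraries, 4 members in 3 genes were called different, and these 4 were also the calls over all exons: 4 of 17290, or 0.0231%. A call needed an adjusted p under 0.05 (Fisher's exact test on included and skipped reads, two-sided, Benjamini-Hochberg over the 17290 exons) and a difference of at least 10 points. Exons near 0 or 100% can hardly differ by that much, so nothing is read from the members' share against the background. The test compares 2 animals' libraries and covers counting error alone. At an unadjusted p under 0.05 there were 28 members (10.3%) and 49 exons in all (0.283%).

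Nrap, a scaffold of nebulin-like repeats in the growing myofibril and at the fibre ends, showed the widest called difference. Its 105-nt exon was included in 66 of 75 reads (88%, 78.4 to 94.4%) of replicate 1 and 29 of 61 (47.5%, 34.6 to 60.7%) of replicate 2, a difference of -40.5 points (adjusted p = 0.00259, Fisher's exact test). The Nrap gene itself had nearly the same level, 266 and 291 CPM. The second 105-nt exon of Nrap, just outside the upper limit, stood at 90.2 and 90.3%.

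Mybpc1 encodes the slow-type myosin-binding protein C of the thick filament, which is also made in fast fibres, and both of its members were used more in replicate 2. The 42-nt exon was included in 46 of 79 reads (58.2%, 46.6 to 69.2%) and 471 of 516 (91.3%, 88.5 to 93.6%), a difference of 33.1 points (adjusted p = 4.35e-08, Fisher's exact test). The 59-nt exon was included in 0 of 86 reads of replicate 1, where the upper limit of the exact interval is 4.20%, and in 94 of 579 (16.2%, 13.3 to 19.5%) of replicate 2 (adjusted p = 0.00422, Fisher's exact test). The gene was read at 113 CPM in replicate 1 and 431 CPM in replicate 2.

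Phka1 encodes the muscle regulatory subunit of phosphorylase kinase, which switches on glycogen breakdown. Its 177-nt exon, 59 amino acids, was included in 206 of 246 reads (83.7%, 78.5 to 88.1%) and 90 of 148 (60.8%, 52.5 to 68.7%), a difference of -22.9 points (adjusted p = 0.00259, Fisher's exact test), and the gene was read at 355 and 139 CPM. So 2 of the 4 called members were higher in replicate 2 and 2 in replicate 1 (0.0116% of all exons either way). The slow fibre markers (17.6 and 7806 CPM), blood markers (2543 and 549.8 CPM) and adipocyte markers (449 and 75.5 CPM) also differed between the libraries. With 2 libraries these differences cannot be told apart, and their part in the result was not tested.

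With known models alone the Phka1 call was kept and the other 3 were lost, with differences of -41.3 points for Nrap, 0.62 for the 59-nt and -0.62 for the 42-nt exon of Mybpc1. The 42-nt exon also lost its call when inclusion was counted only between the annotated neighbours (22.5 points), and the 59-nt exon when replicate 2 was thinned to the reads of replicate 1.

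Because a long read can cover several exons of 1 molecule, the use of 2 exons could be read together. A read need not cover the whole molecule. This was possible for 57 pairs of members that do not overlap, in 34 genes, with at least 20 reads informative for both exons in each library. In the pairs an exon counted as skipped where any 1 intron spanned it, and not only an intron between its annotated neighbours. The reads of a pair can therefore exceed the informative reads of 1 of its exons. For 19 pairs in 14 genes the use of 1 exon was associated with that of the other (Fisher's exact test on reads summed over the libraries, Benjamini-Hochberg over the 57 pairs, adjusted p under 0.05). This test did not keep the libraries apart, so 2 exons that both differ between them can be called for that reason. In 17 of the 19 the exons were used or skipped together and in 2 they were used in exchange. The sign of the association, measured as phi from -1 (exchange) to 1 (always together), was the same in both libraries for 18 of them. The exception is Mybpc1, where phi is undefined in replicate 1 because the 59-nt exon had no read there. Exons that are neighbours and are joined by an annotated intron made up 9 of the 57 pairs and 7 of the 19. An intron that spans both exons of a pair counted as skipping both, so joint skipping can be a single splicing event. At an unadjusted p under 0.05 there were 22 pairs.

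Calu and Flot2 were the 2 genes with exons in exchange. Calu encodes calumenin, a calcium-binding protein of the secretory pathway with EF-hand motifs. All 27 reads of replicate 1 and all 40 of replicate 2 held exactly 1 of its 194-nt exons, the upstream one in 8 and 8 reads and the downstream one in 19 and 32, so phi was -1 in both libraries (adjusted p = 2.54e-14, Fisher's exact test). The intron between these exons is 72 nt long. Flot2 encodes flotillin 2, a scaffold of membrane rafts. Of its reads, 50 of 61 and 79 of 87 held the downstream 91-nt exon alone, 6 and 7 the upstream one alone, 3 and 1 both, and 2 and 0 neither, with phi -0.66 and -0.93 (adjusted p = 2.94e-12, Fisher's exact test). Its exons are 1331 nt apart. In both genes the exchanged exons have equal lengths and similar sequences, as the lines printed above show, and neither length is a multiple of 3.

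Of the 6 Neb pairs, 4 were called as used together. The 111-nt and 105-nt exons were both skipped in 50 of 56 reads of replicate 1 and 32 of 57 of replicate 2, and both included in 2 and 15 (phi 0.46 and 0.64, adjusted p = 7.47e-09, Fisher's exact test). The 111-nt exon was found without the 114-nt exon in 0 and 6 reads, and the 114-nt exon without the 111-nt exon in 10 and 9 (phi 0.48 and 0.47, adjusted p = 2.33e-06, Fisher's exact test). The 105-nt exon occurred without the 93-nt exon in 2 reads and 0 reads, while the 93-nt exon occurred alone in 35 and 39. Here phi was 0.12 and 0.31 (adjusted p = 0.00724, Fisher's exact test), and the 93-nt exon was in most reads of both libraries. In the pairs of 111 and 114 nt and of 105 and 93 nt, most reads with the less used exon held the more used one as well. The 2 pairs not called were 114 with 93 nt (phi -0.02 and 0.13, adjusted p = 0.573, Fisher's exact test) and 111 with 93 nt (phi 0.08 and 0.16, adjusted p = 0.119). Since all 4 Neb exons were higher in replicate 2, the phi within each library, and not the summed value, is the one free of that difference.

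**Figure D5:**
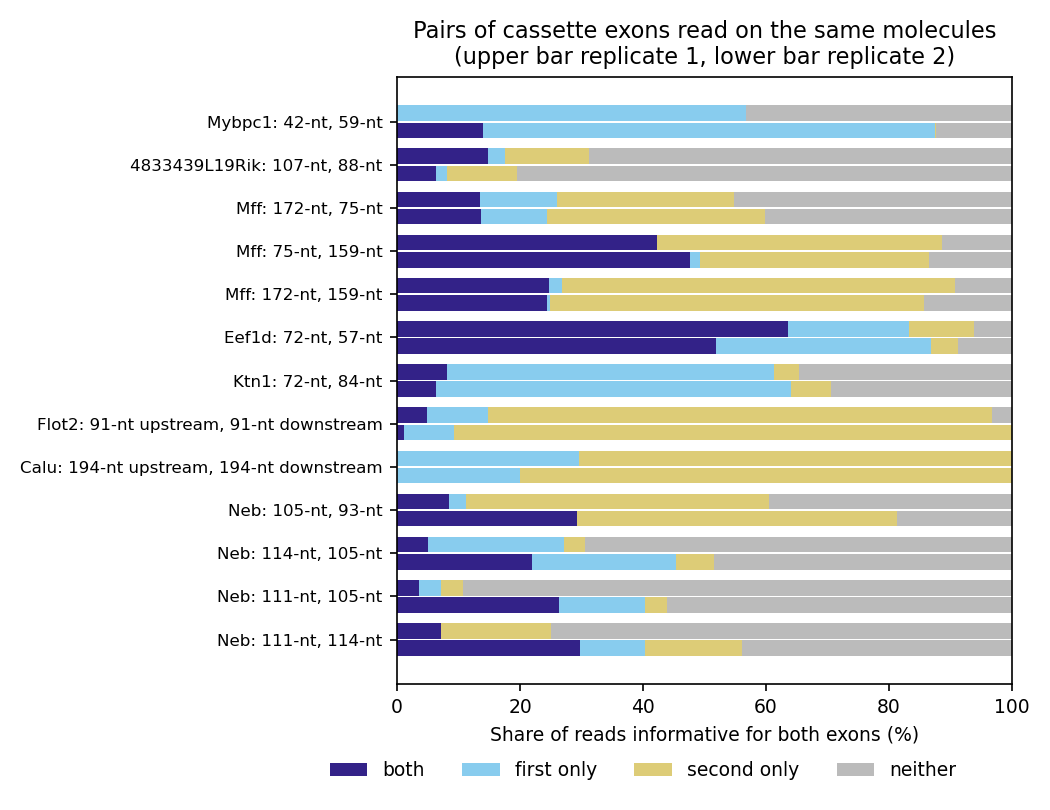
Share of reads informative for both exons (%, horizontal axis) that held both, the first alone, the second alone or neither, for 7 of the 8 most read pairs, the 2 pairs in exchange and the called Neb pairs, with replicate 1 above replicate 2 in each pair. The reads of Calu fall wholly into the classes with 1 exon, and in the Neb pair of 111 and 105 nt most reads held neither exon.

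In Mff, the 75-nt exon was rarely found without the 159-nt exon. Of 97 reads in replicate 1, 41 held both the 75-nt and the 159-nt exon, 45 the 159-nt exon alone, 11 neither and 0 the 75-nt exon alone, and in replicate 2 these numbers were 92, 72, 26 and 3 of 193 (phi 0.31 and 0.33, adjusted p = 1.14e-07, Fisher's exact test). Its 5′ UTR exon of 172 nt went with the 159-nt exon (phi 0.07 and 0.21, adjusted p = 0.0192, Fisher's exact test) but was not called with the 75-nt exon (adjusted p = 0.311). In Ktn1 the 87-nt and 72-nt exons were used together (phi 0.23 and 0.22, adjusted p = 0.00978, Fisher's exact test), and no other Ktn1 pair was called. In 4833439L19Rik, whose product has no assigned role here, both of the 107-nt and 88-nt exons were skipped in 121 of 176 and 177 of 220 reads (phi 0.57 and 0.47, adjusted p = 8.12e-20, Fisher's exact test). The Mybpc1 pair of 42 and 59 nt was called on the summed reads (adjusted p = 0.000125, Fisher's exact test). In it, 74 reads of replicate 2 with the 59-nt exon also held the 42-nt exon and 1 did not. Of the reads without the 59-nt exon, 388 held the 42-nt exon and 65 did not (phi 0.14). Both exons were higher in replicate 2, so the call on the summed reads also holds that difference.

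Well read pairs were not always called. The 72-nt and 57-nt exons of Eef1d, an exchange factor of translation elongation, with 272 reads, had phi 0.11 and 0.18 (adjusted p = 0.054, Fisher's exact test).

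The base content of the exons was close to that of nearly always used exons. Their median GC content was 50.6%, against 50.9% for exons over 90% inclusion. Motifs known for muscle splicing regulators were searched in the exon, on the transcript strand, and compared with exons over 90% within 5 nt of the same length, for the 264 members with at least 20 such exons. GCATG, bound by Rbfox proteins, was in 9.47% of members and 9.66% of like-length exons, ACTAA (Quaking) in 4.17 and 3.75%, TGTGT (Celf) in 10.6 and 10%, and CTCTCT (Ptbp) in 3.41 and 2.90%. The letters of these motifs do not contain one another. Introns, where these proteins often bind, were not analysed here, and a match in an exon, or the lack of one, says nothing of the factor.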

How the data were processed

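The authors deposited, per library, whole-number read counts per transcript model, not normalized, and a transcript annotation. Per the submitters' processing notes and the files, the build was mm10 and the annotation GENCODE M21. Which aligner and filters were used is not given in the sources used here. Transcript classes are those of the deposited tables: known, incomplete (ISM), NIC (known splice sites newly combined), NNC (a new splice site) and genomic. Of the reads including a member, 59.8% in replicate 1 and 63.2% in replicate 2 came from known models, and of those skipping it 55.3% and 65.2%.

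From the counts, inclusion, exact Clopper-Pearson 95% intervals and Fisher's exact tests were computed with scipy 1.17.1, pandas 2.3.3 and numpy 2.4.6 (Python 3.11.15), and figures with matplotlib 3.10.9. CPM was computed on the 797105 and 1602272 reads in annotated genes. The reads carry no molecular identifiers and need not be independent molecules, so intervals and p-values cover counting error only. The exon test was tested on simulated data: of 100 exons shifted by 30 points among 17290, 38 were called in the right direction and 0 others were called, at the depths of these libraries and this adjustment.

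The members, the gene lists, the named exons' rule and the tests were chosen with earlier results of these data known. Named exons were the 15 most read, those called, at most 8 per list by reads, the 8 most read pairs, the 3 on either side of each limit, the 3 longest and shortest, and the 3 most read that differed by under 2 points. The values of 1 gene that the rule names are not reported here. Others were picked after their values were seen, as were the roles in the broader grouping of genes. Of the 271 members, 16 overlap another, giving 263 separate exons. Alternatives covered the classes of models counted, the definition of skipping and of inclusion, the read minimum, the inclusion limits, overlapping exons, depth, and each library alone. Adjusting p only over exons read in both forms was added after seeing the data. Splice sites and intron motifs were not analysed here.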

Additional observations from a re-analysis of the deposited data

How the results depend on the processing

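The number of members, 271, depends on the rule. It was 96 with known models only, 441 when any intron spanning the exon counted as skipping, 149 and 426 with inclusion limits of 20 to 80% and 5 to 95%, 534 and 84 with minima of 10 and 50 reads, and 304 to 450 with members chosen without one of the replicates. In the same order, coding members (183) were 62, 337, 106, 303, 360, 52 and 212 to 291. Members in the gene lists (86) were 30 with known models only, 186 with any spanning intron and 53 at 20 to 80%. They were 139 and 41 for the 2 read minima and 99 to 100 without a replicate. In the order of the coding members, members with GCATG (27) were 10, 42, 15, 38, 56, 8 and 30 to 44. The share of coding members at a multiple of 3 (75.4%) was 66.1% with known models only, 59.9% with any spanning intron, 67.7% at 5 to 95%, 82.7% at 50 reads and 69.4 to 75.9% without one replicate, each above the 39.5% of exons over 90% in the main rule. The median length was 88.5 nt at 50 reads. Median inclusion (62.4%) was 58.3, 71.8, 53.4, 76.2, 64.3 and 52.4% in the first order, 63.1% with 1 exon per overlapping group, 61% without incomplete and genomic models and 64.2 to 66.2% without one replicate. Calls between the libraries (4) were 1 with known models only, 80 with any spanning intron, 2 at 20 to 80%, 7 at 50 reads and 7 when p was adjusted over the 1860 exons read in both forms. That last setting was chosen after seeing the data and added the 111-nt exon of Neb, Mlf1 and Bnip3l (adjusted p = 0.0107 each, Fisher's exact test). Of the 80, 68 were in Myh1 (35) and Myh2 (33). Calls higher in replicate 2 (2) were 0, 77, 0, 5 and 5 in these settings, and 1 each with inclusion only between annotated neighbours, a minimum difference of 20 points or replicate 2 thinned. The 42-nt exon of Mybpc1 reversed to -0.62 points with known models only. Called pairs (19) were 9 with known models only and 6 to 12 without one replicate. The cause of these changes was not tested, beyond the reads and exons each setting removes or adds. Calls between the libraries cannot be tested without one of them. No paired analysis was possible because both libraries belong to 1 group. Simulated differences of 30 points, at the depths of these exons and with p adjusted over all 17290, were called in 38 of 100 exons.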
